A study of Mus musculus with 10 samples.

Results

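Chromatin accessibility in effector regulatory T (WT eTreg) cells was compared with that in central regulatory T (WT cTreg) cells, all of them wild type for Fntb. The comparison took the 3 WT eTreg and the 3 WT cTreg libraries, 6 of the 10 libraries of the study, and covered every region of the deposited count table. The other libraries came from eTreg and cTreg cells deficient in Fntb (FntbKO eTreg and FntbKO cTreg, 2 libraries each), and they entered the same fit. The product of Fntb is the β subunit of the farnesyltransferase, which links farnesyl groups to proteins such as lamins and small GTPases. Every group was sorted directly from mouse mixed bone marrow chimeras, animals rebuilt with marrow of different donors, and spleen and lymph nodes were the tissue in each case. ATAC-seq was the assay: a transposase cuts accessible DNA and adds sequencing adapters, so that the number of reads over a region tracks how open it is. The labels give neither the surface markers that separated eTreg from cTreg cells, nor the Cre or the deleted part of Fntb, nor the strain, sex or age of the mice. They also do not say whether libraries with the same group name came from different animals, so the p-values below measure the spread between these libraries, which may in part be technical.

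Central Treg cells resemble naive and memory T cells in that they recirculate through lymph nodes and spleen. Their entry depends on adhesion receptors and CCR7, and factors such as BACH2, FOXP1, TCF1, LEF1 and KLF2 maintain their quiescence. Effector Treg cells have been activated through the T cell receptor. They turn down lymph node homing, take up receptors for tissue chemokines and matrix, and make more of the molecules that restrain other cells, such as IL-10, CTLA4, ICOS and granzyme B. Distal elements of a gene usually carry more of the differences between related cell states than its promoter does.

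The WT eTreg libraries held 8427620, 9822626 and 5946131 counts, and the WT cTreg libraries 7259480, 5694869 and 9347634 counts. On the first principal component of the 6 libraries, which held 38.4% of the variance, WT eTreg lay between 41.4 and 117.8 and WT cTreg between -106.4 and -45.3. WT cTreg 2 was the cTreg library nearest to eTreg on this axis, and it lay apart from the others on the second component (113.1, with 21.7% of the variance). Regions of T cell genes were open in both subsets. The promoter region of Cd3e, a chain of the T cell receptor complex, had 20.4 ± 2.06 CPM in WT eTreg and 20.5 ± 2.46 CPM in WT cTreg cells (SD, n = 3 each). At Foxp3, which encodes the factor that defines Treg cells, the region with most counts had 29.8 ± 1.38 CPM in WT eTreg and 29.2 ± 4.21 CPM in WT cTreg cells (SD, n = 3 each), and none of the 3 Foxp3 regions was called. CPM here means counts scaled to a common library total after TMM scaling, which sets the libraries to a common level.

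Chromatin opened in WT eTreg cells at 1393 regions and closed at 1226, of 76216 that passed the filter on low counts. A call needed a Benjamini-Hochberg adjusted p under 0.05 in edgeR's quasi-likelihood test over all of these regions, so 3.44% of tested regions were called, 1.83% higher and 1.61% lower. Among called regions the openings were larger than the closings, but they also lay at less covered regions. The median log2 CPM over all libraries was 2.8 at higher and 3.5 at lower calls. How far coverage shaped the sizes of the calls was not tested. Leaving aside regions with at most 3 counts in all in either subset (76 of the higher and 6 of the lower calls), the median log2 fold change of eTreg over cTreg was 1.21 at higher and -0.92 at lower regions. Changes beyond 2-fold made up 63.9% of these higher calls (842) and 41.6% of these lower calls (508). For 31 of the higher regions the WT cTreg libraries held no count at all. The called regions were assigned to 1783 protein-coding genes, taking the gene whose span a region overlapped or the nearest one within 100 kb. Of these genes, 1055 had a region that opened, 849 one that closed and 121 had both. Such an assignment is a position and does not show that the region acts on the gene. The cells were profiled in bulk, so fewer cells of a kind and less open DNA per cell cannot be told apart.

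The size of the set depended on single libraries. With 1 WT eTreg library left out the number of calls was 818 (WT eTreg 1), 2488 (WT eTreg 2) or 545 (WT eTreg 3). With 1 WT cTreg library left out it was 774 (WT cTreg 1), 3664 (WT cTreg 2) or 427 (WT cTreg 3). With WT cTreg 2 and FntbKO cTreg 1 both left out, a choice made after seeing the data, 4225 regions were called, 2459 higher and 1766 lower. A core of 268 regions, 154 higher and 114 lower, passed without each WT library in turn. The same left-out pair of libraries gave 16 higher and 13 lower calls for costimulatory and inhibitory receptors, 8 higher and 7 lower for cytokine receptors, 4 higher and 13 lower for TGF-β receptors and Smads and 10 higher and 5 lower for T cell receptor signalling, lists taken up below. Of the 183 called regions picked by the naming rules, 49 belong to this core. For the other regions described in full below, the libraries that ended a call are named.

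Promoters made up few of the calls. Of 9085 tested regions that overlapped the window from 250 bases before to 50 bases after a listed gene start, 77 were called higher and 25 lower, which is 1.12% of them. Elsewhere the share called was 3.71% inside genes, 2.74% within 10 kb of a gene, 4.21% at 10 to 100 kb and 5.36% beyond 100 kb or without a gene. A region counted as inside a gene if it overlapped the gene span, so it may reach past an end of the span. The fold changes of promoters were also narrower, with an SD of 0.27 on the log2 scale against 0.65 at the other regions. Among the best covered regions, the top of 4 equal bins by level, 0.995% of promoters and 7.40% of other regions were called. Starts were listed for 79.9% of protein-coding genes, and 9782 regions in genes with no listed start were kept as a class of their own, of which 3.47% were called. They are not among the other regions that promoters were compared with here.

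**Figure D1:**
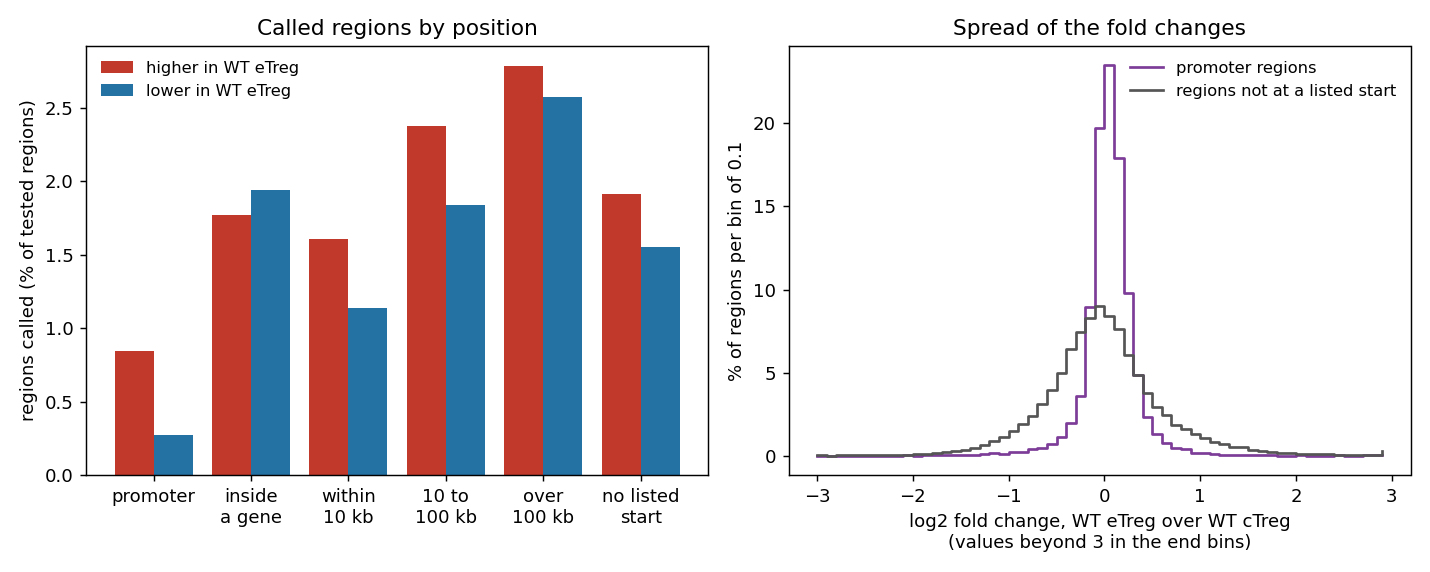
Called regions by position relative to genes: the percent of tested regions called higher and lower in WT eTreg over WT cTreg (left, 76216 tested regions) and the distribution of log2 fold changes of 9085 promoter regions and of 57349 other regions, as percent of regions per bin (right). Regions in genes with no listed start are left out on the right. Promoters have the lowest bars in both directions, 1.12% in all, and the narrower distribution (SD 0.27 against 0.65).

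Among the promoters called higher were those of Asns, Srxn1, Dhrs9, Gzmb and Havcr2. The promoter of Asns, asparagine synthetase, which the amino acid response switches on, had 15.7, 13.4 and 18.2 CPM in WT eTreg against 6.42, 8.60 and 6.97 CPM in WT cTreg libraries. All eTreg libraries were above all cTreg libraries there, with a log2 fold change of 1.10 (SE 0.21, adjusted p = 0.00380). Srxn1, sulfiredoxin, which repairs oxidised peroxiredoxins, had 18.2, 12.2 and 16.5 CPM in WT eTreg against 5.03, 8.26 and 3.59 CPM in WT cTreg libraries at its promoter, again without overlap and with a log2 fold change of 1.51 (SE 0.27, adjusted p = 0.00256). At Dhrs9, a dehydrogenase of the retinol family, the promoter reached 56.4, 53.0 and 54.1 CPM in WT eTreg against 25.8, 30.6 and 18.7 CPM in WT cTreg libraries. Its log2 fold change was 1.14 (SE 0.16, adjusted p = 0.00112). These 3 promoters kept their calls without each WT library in turn. The promoter of Gzmb, which encodes the cytotoxic protease granzyme B, had 15.5, 18.0 and 18.5 CPM in WT eTreg against 5.58, 10.3 and 8.87 CPM in WT cTreg libraries and a log2 fold change of 1.07 (SE 0.23, adjusted p = 0.0108). Gzmb lost this call when WT eTreg 3 or WT cTreg 1 or 3 was left out (adjusted p 0.0594 to 0.0713). Havcr2, which encodes the inhibitory receptor TIM-3, had 14.5, 15.5 and 16.6 CPM in WT eTreg against 5.87, 6.88 and 7.61 CPM in WT cTreg libraries and a log2 fold change of 1.19 (SE 0.28, adjusted p = 0.0222). Havcr2 lost this call when WT eTreg 1 or 3 or WT cTreg 1 or 3 was left out (adjusted p 0.0622 to 0.103).

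The median log2 fold change was 0.60 over the 77 promoters called higher and -0.72 over the 25 called lower. Bend5, a gene of the BEN domain family, had 27.9, 31.7 and 24.1 CPM in WT eTreg against 52.9, 41.98 and 46.0 CPM in WT cTreg libraries at its promoter. Its libraries did not overlap, and the log2 fold change was -0.74 (SE 0.14, adjusted p = 0.00468), kept without each WT library. Arpp21, which is known for its expression in early lymphocytes and neurons, had 20.5, 23.5 and 20.7 CPM in WT eTreg against 31.6, 31.7 and 34.1 CPM in WT cTreg libraries at 1 of its 9 listed starts, with a log2 fold change of -0.59 (SE 0.14, adjusted p = 0.0161). Arpp21 lost this call when WT eTreg 1 or 3 or WT cTreg 3 was left out (adjusted p 0.0784 to 0.105). The promoter of Pou2af1, a coactivator of octamer-binding factors known from B cells, had 35.3, 31.9 and 38.7 CPM in WT eTreg against 47.6, 49.7 and 51.5 CPM in WT cTreg libraries and a log2 fold change of -0.50 (SE 0.11, adjusted p = 0.0120). Pou2af1 lost this call when WT eTreg 2 or WT cTreg 3 was left out (adjusted p 0.0525 to 0.0871). At Ptger3, a prostaglandin E receptor, the promoter had 9.64, 8.87 and 7.80 CPM in WT eTreg against 17.0, 15.7 and 17.2 CPM in WT cTreg libraries and a log2 fold change of -0.92 (SE 0.20, adjusted p = 0.0108), and the call was lost when WT eTreg 3 or WT cTreg 3 was left out (adjusted p 0.0675 to 0.0732). The highest eTreg library was below the lowest cTreg library at each of these 4 promoters.

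**Figure D2:**
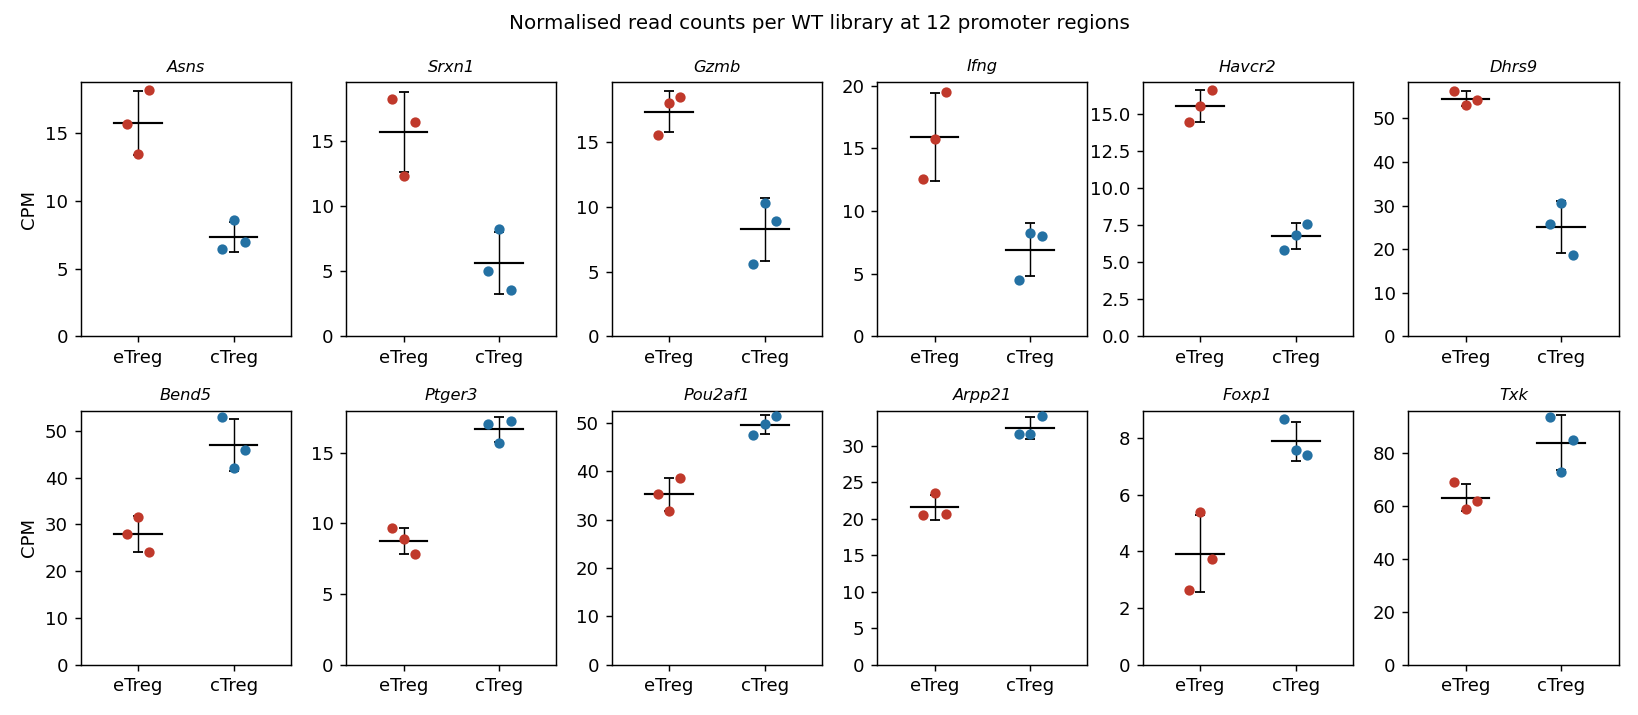
CPM of each WT eTreg (left) and WT cTreg (right) library at promoter regions of Asns, Srxn1, Gzmb, Ifng, Havcr2 and Dhrs9, called higher, and of Bend5, Ptger3, Pou2af1, Arpp21, Foxp1 and Txk, called lower; lines and error bars give the mean and SD of 3 libraries. The groups do not overlap at any of these 12 promoters, and Dhrs9 runs from 18.7 CPM in a WT cTreg library to 56.4 CPM in a WT eTreg library.

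The 250 bases before the start of some of these genes are shown because the change lay at the promoter itself and because they differ in the letters of activation-linked motifs. They are RefSeq sequences of GRCm38.p6, given 5′ to 3′ on the gene's own strand, with matches to the AP-1, CEBP-ATF, T-box and RUNX motifs described next in capitals. The coordinates are chr6:7693210-7693459 (minus strand) for Asns, chr2:152105274-152105523 (plus strand) for Srxn1, chr2:69380212-69380461 (plus strand) for Dhrs9, chr14:56262335-56262584 (minus strand) for Gzmb, chr11:46454681-46454930 (plus strand) for Havcr2, chr9:112185950-112186199 (minus strand) for Arpp21 and chr4:111414756-111415005 (plus strand) for Bend5.
Asns: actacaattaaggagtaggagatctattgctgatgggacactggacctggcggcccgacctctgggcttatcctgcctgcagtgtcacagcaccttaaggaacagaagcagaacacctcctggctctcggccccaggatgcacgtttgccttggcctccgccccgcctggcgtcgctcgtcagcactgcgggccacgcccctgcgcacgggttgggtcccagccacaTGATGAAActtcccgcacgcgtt
Srxn1: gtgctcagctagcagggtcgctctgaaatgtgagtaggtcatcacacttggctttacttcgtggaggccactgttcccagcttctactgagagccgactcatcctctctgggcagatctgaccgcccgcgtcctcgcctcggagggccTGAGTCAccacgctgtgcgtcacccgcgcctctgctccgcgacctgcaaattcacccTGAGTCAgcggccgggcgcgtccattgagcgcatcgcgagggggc
Dhrs9: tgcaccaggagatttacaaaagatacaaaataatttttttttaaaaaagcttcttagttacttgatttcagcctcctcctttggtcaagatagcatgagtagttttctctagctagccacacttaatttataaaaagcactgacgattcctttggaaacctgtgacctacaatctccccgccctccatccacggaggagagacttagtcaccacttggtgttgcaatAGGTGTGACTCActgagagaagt
Gzmb: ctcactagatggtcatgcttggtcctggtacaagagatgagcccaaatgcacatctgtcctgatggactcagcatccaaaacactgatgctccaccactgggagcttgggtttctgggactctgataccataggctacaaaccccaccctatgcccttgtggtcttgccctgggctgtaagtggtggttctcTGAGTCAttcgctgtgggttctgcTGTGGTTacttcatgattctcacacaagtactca
Havcr2: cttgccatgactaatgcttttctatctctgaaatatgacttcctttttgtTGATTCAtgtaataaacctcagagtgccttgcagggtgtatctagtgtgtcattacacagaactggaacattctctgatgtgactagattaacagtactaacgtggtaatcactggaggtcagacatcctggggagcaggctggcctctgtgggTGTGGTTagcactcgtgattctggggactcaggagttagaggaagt
Arpp21: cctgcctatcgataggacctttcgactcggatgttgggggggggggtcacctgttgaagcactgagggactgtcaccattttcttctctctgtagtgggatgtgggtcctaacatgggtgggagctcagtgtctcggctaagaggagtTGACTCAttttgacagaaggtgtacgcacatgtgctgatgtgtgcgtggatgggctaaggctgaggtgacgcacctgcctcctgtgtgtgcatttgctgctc
Bend5: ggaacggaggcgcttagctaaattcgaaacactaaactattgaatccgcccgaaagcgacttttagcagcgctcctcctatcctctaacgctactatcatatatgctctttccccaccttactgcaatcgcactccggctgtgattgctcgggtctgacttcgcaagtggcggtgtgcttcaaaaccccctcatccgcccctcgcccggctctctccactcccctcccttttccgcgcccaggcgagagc

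The capitals in Asns are TGATGAAA, a form of TGATGNAA, the composite of CEBP and ATF letters known as the amino acid response element, starting 23 bases before the gene start. In Srxn1 they are 2 copies of TGAGTCA, a form of the AP-1 motif TGANTCA, at 102 and 45 bases before the start. Gzmb held TGAGTCA at 58 bases and the RUNX motif TGTGGTT at 34 bases before its start, and Havcr2 held TGATTCA at 200 and TGTGGTT at 46 bases before its start. In Dhrs9 the T-box motif AGGTGTGA at 23 bases overlaps TGACTCA at 18 bases before the start, so its capitals form a single run, and a match to the SP/KLF motif GGGCGGG on the other strand, 74 bases before the start, is left in lower case. SP/KLF letters were in 31.1% of all windows and 47.5% of the tested ones. Arpp21 held TGACTCA 102 bases before its start although its promoter closed, and Bend5 held none of these motifs. The letters TGACGTCA (CRE), CTTTGAT (TCF/LEF), CGGAAG (ETS) and CCAAT and the IRF motif were searched too and were in none of the 7 sequences. The windows of Ifng, called higher, and Foxp1, called lower, were also read and are not printed. They held no match to any of the motifs searched. That of G0s2, called lower, held only SP/KLF letters. Over all promoters, both strands searched, AP-1 letters were in 6.13% of 21263 windows and in 3.84% of the tested promoter regions' genes, against 10.4% (8 of 77) of the promoters called higher and 4% (1 of 25) of those called lower. RUNX letters were in 3.82% of all windows, 2.98% of the tested ones, 7.79% (6 of 77) of those higher and 4% (1 of 25) of those lower. For TGATGNAA these shares were 3.18%, 1.86%, 2.6% (2 of 77) and 0, and for AGGTGTGA 0.997%, 0.66%, 1.3% and 0. The tested promoters had a mean GC content of 61.1%, those called higher 58.9% and those called lower 59.4%, against 55.5% over all windows. A match describes the letters only, and motifs of the distal regions were not searched.

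Some genes for entry into and exit from lymph nodes lost accessibility in WT eTreg cells, at regions outside the promoters of listed gene starts. Of 100 tested regions of 7 homing and egress genes, 6 were called lower (6.0% against 1.61% of all regions) and 2 higher, and the median log2 fold change over the 100 was -0.17 against -0.01 over all tested regions. The lower calls were at S1pr1, Ccr7 and Klf2, and the same numbers, 2 and 6, came without WT cTreg 2 and FntbKO cTreg 1. The 2 higher calls were at S1pr1, and S1pr4, Cxcr4, Gpr183 and Ccr9 had no call. None of the 3 promoter regions of these genes was called, but starts were not listed for every gene, so a start may lie in another class. Homing calls were 1 higher and 4 lower without WT eTreg 1, 1 and 5 without WT eTreg 2, 0 and 3 without WT eTreg 3 or WT cTreg 3, and 0 and 4 without WT cTreg 1.

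Ccr7, the receptor that leads T cells into lymph nodes, closed at 2 of 18 regions and opened at none. The first, at chr11:99154895-99155501, runs over an end of the gene span (chr11:99144199-99155077). It had 34.6, 33.5 and 28.2 CPM in WT eTreg against 56.0, 49.0 and 51.1 CPM in WT cTreg libraries, without overlap. Its log2 fold change was -0.69 (SE 0.11, adjusted p = 0.00119). In FntbKO cells that region had a log2 fold change of eTreg over cTreg of -0.15 (SE 0.13, adjusted p = 0.638), but the test of the difference between genotypes did not call it or any other region. A second Ccr7 region (chr11:99170670-99171340) had 24.1, 25.7 and 17.8 CPM in WT eTreg against 45.0, 32.2 and 42.9 CPM in WT cTreg libraries and a log2 fold change of -0.82 (SE 0.14, adjusted p = 0.00201), and both Ccr7 calls were kept without each WT library. S1pr1, the sphingosine receptor for exit into lymph, moved in both directions among its 41 regions. A region that overlaps the gene span (chr3:115714709-115715234) had 33.4, 38.8 and 32.4 CPM in WT eTreg against 57.0, 53.0 and 54.8 CPM in WT cTreg libraries. Its log2 fold change was -0.65 (SE 0.12, adjusted p = 0.00276), kept without each WT library. Another, 17.6 kb away (chr3:115692409-115692783), was higher, with 12.1, 16.5 and 15.6 CPM in WT eTreg against 7.26, 6.88 and 7.29 CPM in WT cTreg libraries and a log2 fold change of 1.04 (SE 0.24, adjusted p = 0.0168). The higher call was lost when WT eTreg 2 or 3 or WT cTreg 1 or 3 was left out (adjusted p 0.0562 to 0.0898). Klf2, the factor that drives S1pr1, had 1 lower region 23 kb away with 8.67, 9.56 and 7.97 CPM in WT eTreg against 15.4, 13.1 and 13.7 CPM in WT cTreg libraries and a log2 fold change of -0.68 (SE 0.19, adjusted p = 0.0439). Klf2 lost this call when WT eTreg 1, 2 or 3, WT cTreg 1 or 3 or FntbKO cTreg 2 was left out (adjusted p 0.0507 to 0.171).

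Some transcription factors of quiescence and the central state lost accessibility, most often at Bach2 and Foxp1. Among 454 tested regions of 15 such genes, 30 were called lower (6.61%, background 1.61%) and 1 higher, with a median of -0.30. Without WT cTreg 2 and FntbKO cTreg 1 the calls were 43 lower and 2 higher among 456 regions. These calls were 1 higher and 14 lower without WT eTreg 1, 1 and 6 without WT eTreg 3, 1 and 9 without WT cTreg 1, 2 and 43 without WT cTreg 2, and 0 and 6 without WT cTreg 3. Bach2, Foxp1, Satb1, Lef1, Foxo1, Foxo3, Btg1, Klf2 and Ets1 had lower calls. Tcf7, which encodes TCF1, had none among 18 regions, with a median of -0.19 and a range from -0.80 to 0.27. Klf3, Klf7, Id3, Zeb1 and Tob1 had no call either. Bach2, a repressor that holds back effector programmes, had the most lower calls of any gene together with Foxp1, 9 of 85 regions, and 71 of the 85 had a negative log2 fold change. At chr4:32394602-32395186, within the gene, the values were 6.99, 4.58 and 5.77 CPM in WT eTreg against 13.4, 12.7 and 15.2 CPM in WT cTreg libraries. Every cTreg library was above every eTreg library, with a log2 fold change of -1.26 (SE 0.22, adjusted p = 0.00244). A second internal Bach2 region (chr4:32291345-32291974) had 14.5, 19.5 and 12.6 CPM in WT eTreg against 33.2, 24.1 and 28.7 CPM in WT cTreg libraries and a log2 fold change of -0.87 (SE 0.17, adjusted p = 0.00496). Both calls held without each WT library, and the other 7 were each lost without WT eTreg 3 and also without WT cTreg 3 (adjusted p up to 0.196).

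Foxp1, a forkhead factor that keeps T cells quiescent, had 9 lower calls among 86 regions, none of which held without each WT library. Its eTreg libraries lay wholly below the cTreg libraries at 33 of the 86 regions, where 11.2% of all tested regions did so, and 73 had a negative log2 fold change. The call with the smallest p, at chr6:99171822-99172715, had 22.2, 18.0 and 16.6 CPM in WT eTreg against 30.7, 27.0 and 33.2 CPM in WT cTreg libraries and a log2 fold change of -0.68 (SE 0.14, adjusted p = 0.00777), and it was lost when WT eTreg 3 or WT cTreg 3 was left out (adjusted p 0.0607 to 0.0773). Foxp1 also had a promoter region called lower, at 1 of its 3 listed starts, inside the gene and 42.4 kb from its centre. That region had 2.65, 5.38 and 3.73 CPM in WT eTreg against 8.66, 7.57 and 7.39 CPM in WT cTreg libraries and a log2 fold change of -0.98 (SE 0.27, adjusted p = 0.0437). Foxp1 lost this call when WT eTreg 1 or 3 or WT cTreg 1 or 3 was left out (adjusted p 0.122 to 0.203). The regions at the 5′ end of the gene, 298.1 to 299.4 kb from its centre, were not called (log2 fold changes 0.14, -0.07 and -0.21). Satb1, an organiser of chromatin loops in T cells, had the steepest fall among the called regions of this list. Its internal region at chr17:51779966-51780258 had 0.241, 0.398 and 0.339 CPM in WT eTreg against 3.63, 4.82 and 3.27 CPM in WT cTreg libraries, which came from 8 and 85 counts in all. Its log2 fold change was -3.50 (SE 0.58, adjusted p = 0.00172). A second Satb1 region 70.6 kb away had 13.97, 14.6 and 12.2 CPM in WT eTreg against 26.2, 21.7 and 26.8 CPM in WT cTreg libraries and a log2 fold change of -0.87 (SE 0.15, adjusted p = 0.00244). Neither Satb1 call depended on any single WT library. Btg1, an antiproliferative factor of quiescent cells, closed 81.2 kb away (chr10:96535394-96535851), with 15.5, 19.3 and 16.6 CPM in WT eTreg against 28.6, 34.4 and 27.3 CPM in WT cTreg libraries and a log2 fold change of -0.80 (SE 0.14, adjusted p = 0.00244), also kept without each WT library. The FntbKO log2 fold change of that Btg1 region was 0.09 (SE 0.16, adjusted p = 0.845).

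Lef1, the partner of TCF1, had a lower region at chr3:131199589-131200631 with 6.50, 7.17 and 4.41 CPM in WT eTreg against 14.5, 8.26 and 13.3 CPM in WT cTreg libraries and a log2 fold change of -0.98 (SE 0.24, adjusted p = 0.0208). The call was lost when WT eTreg 1 or 3 or WT cTreg 1 or 3 was left out (adjusted p 0.0623 to 0.127). Ets1, a broadly expressed T cell factor, was the exception with a higher call (chr9:32710421-32710721), at 11.6, 15.1 and 7.97 CPM in WT eTreg against 6.42, 4.47 and 5.07 CPM in WT cTreg libraries and with a log2 fold change of 1.13 (SE 0.25, adjusted p = 0.0117). Ets1 lost this call when WT eTreg 2 or WT cTreg 3 was left out (adjusted p 0.0675 to 0.0844). Ets1 also had lower calls inside the same gene. At chr9:32731722-32732300 the values were 22.2, 23.5 and 22.9 CPM in WT eTreg against 34.2, 31.7 and 32.2 CPM in WT cTreg libraries, with a log2 fold change of -0.52 (SE 0.12, adjusted p = 0.0166). Ets1 lost this call when WT eTreg 1 or 3 or WT cTreg 1 or 3 was left out (adjusted p 0.0712 to 0.0749).

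**Figure D3:**
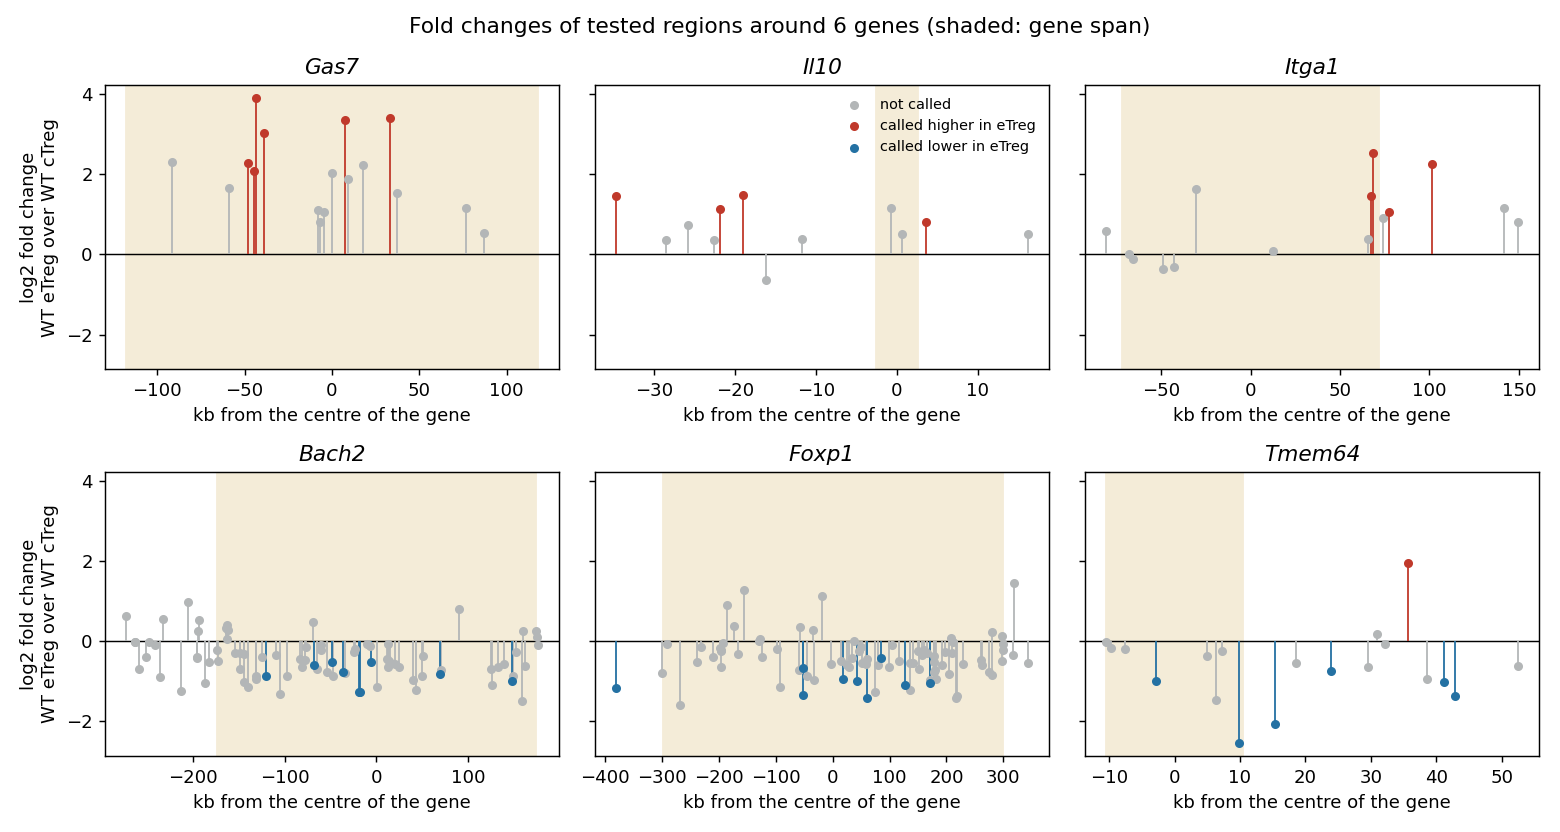
Log2 fold change of WT eTreg over WT cTreg at every tested region assigned to Gas7, Il10, Itga1, Bach2, Foxp1 and Tmem64, plotted against the distance in kb from the centre of the gene; red and blue points are regions called higher and lower, grey points were not called, and the shading marks the gene span. All 17 Gas7 regions lie above 0, and 71 of 85 Bach2 and 73 of 86 Foxp1 regions lie below 0, as do 17 of 19 Tmem64 regions.

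**Figure D4:**
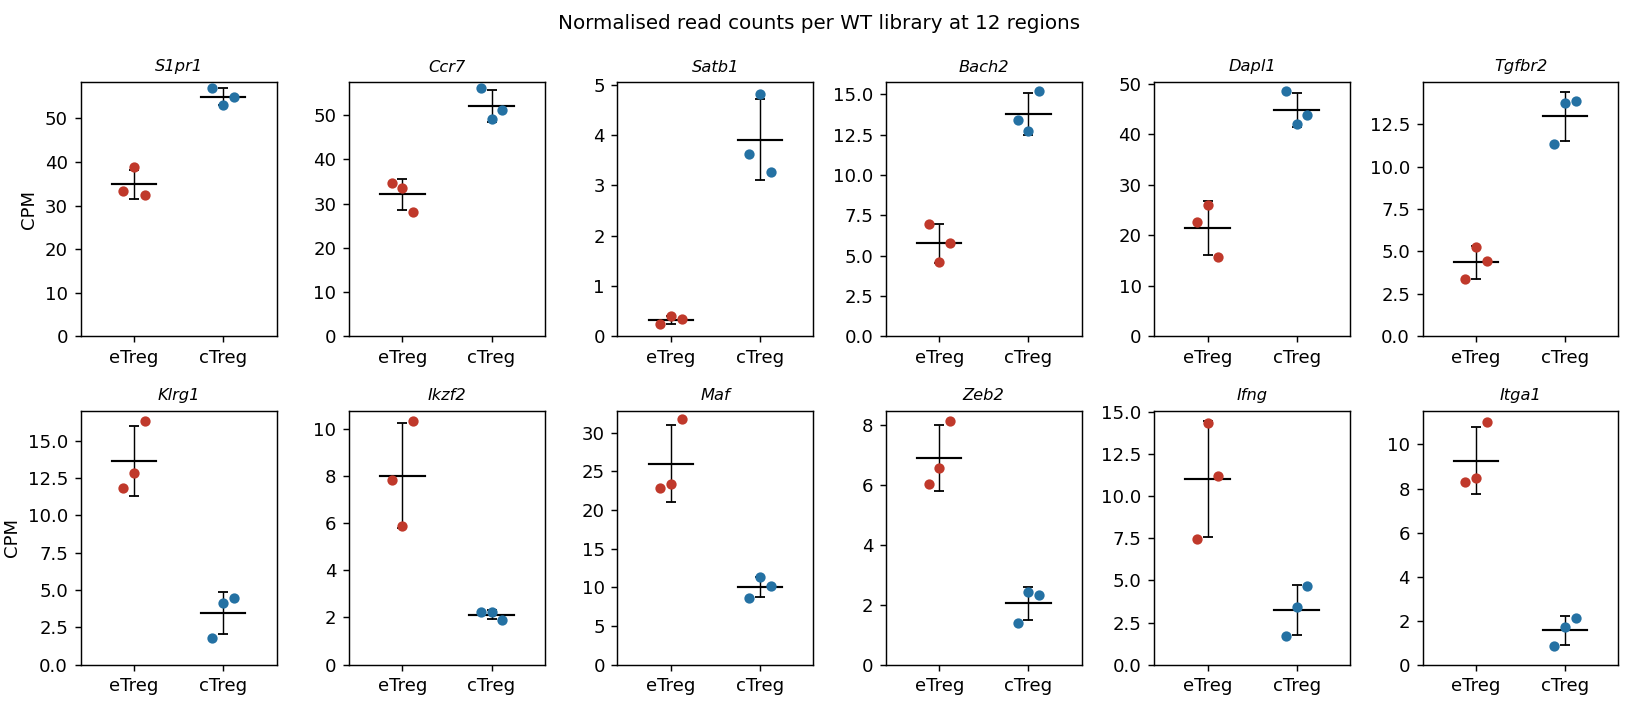
CPM of each library at regions of S1pr1, Ccr7, Satb1, Bach2, Dapl1 and Tgfbr2 (called lower) and of Klrg1, Ikzf2, Maf, Zeb2, Ifng and Itga1 (called higher), with WT eTreg left of WT cTreg in each panel; lines and error bars give the mean and SD of 3 libraries. The groups do not overlap in any of the 12 panels.

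At some genes several regions were called in the same direction. Gas7, growth arrest specific 7, is a gene known for cytoskeletal remodelling in neurons. It had 6 higher calls among 17 regions, the most of any gene, all 17 lay above 0 and 12 had all eTreg above all cTreg libraries, as 10.7% of all tested regions did. The 17 had a median log2 fold change of 2.02 in WT and 1.52 in FntbKO cells, where again all 17 were above 0 although none was called. In WT cells 4 neighbouring regions were called in a row over 9.885 kb (chr11:67522652-67532537), the longest run of calls by number of regions. The best covered of the 4 (chr11:67522652-67523036) had 4.82, 6.38 and 6.28 CPM in WT eTreg against 0.977, 2.41 and 0.423 CPM in WT cTreg libraries and a log2 fold change of 2.29 (SE 0.53, adjusted p = 0.0181). These were shallow regions. The best covered regions of the Gas7 locus, with log2 fold changes of 1.12 and 0.80, were not called, and their eTreg and cTreg libraries overlapped. Each of the 6 calls was lost with WT cTreg 3 left out, and 5 of them also with WT eTreg 3 left out (adjusted p up to 0.203). The one lost without WT cTreg 3 alone (adjusted p = 0.0732) lay at chr11:67578468-67578767 and had 72 counts in all in WT eTreg against 6 in WT cTreg libraries.

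Runs of at least 2 neighbouring calls numbered 83 higher and 70 lower, and runs of at least 3 numbered 7 and 4. Ptpn5, a tyrosine phosphatase, had 4 higher calls among 13 regions, of which 3 lay in a row. Its region 5.9 kb from the gene (chr7:47139913-47140300) had 7.83, 4.38 and 6.11 CPM in WT eTreg against 0.558, 1.03 and 1.06 CPM in WT cTreg libraries and a log2 fold change of 2.76 (SE 0.44, adjusted p = 0.00144), kept without each WT library. Stk32c, a serine/threonine kinase, had 4 higher calls among 14 regions, and at chr7:139151045-139151619 it had 58.4, 46.0 and 59.7 CPM in WT eTreg against 31.8, 31.0 and 24.7 CPM in WT cTreg libraries and a log2 fold change of 0.91 (SE 0.16, adjusted p = 0.00334), also kept. Ttc39c, whose function in T cells is little described, had 5 higher calls among 8 regions, each lost without WT cTreg 1, WT cTreg 3 or further WT libraries (adjusted p up to 0.177). Glb1, lysosomal β-galactosidase, had 5 among 21, each lost without WT eTreg 3 and also without WT cTreg 3 (adjusted p up to 0.227). On the closing side, Lrrc1 and Arpp21 had 3 lower calls in a row over 47.4 and 34.0 kb. In Lrrc1 the region at chr9:77513931-77514325 had 11.3, 10.4 and 8.14 CPM in WT eTreg against 21.2, 19.96 and 24.1 CPM in WT cTreg libraries and a log2 fold change of -1.12 (SE 0.18, adjusted p = 0.00169), kept without each WT library. Tmem64, a membrane protein gene, had 6 lower calls and 1 higher call among 19 regions, with 15.7, 14.3 and 11.5 CPM in WT eTreg against 31.6, 21.7 and 30.1 CPM in WT cTreg libraries at chr4:15273167-15273717, a log2 fold change of -1.0 (SE 0.16, adjusted p = 0.00135), likewise kept. Aven, an inhibitor of apoptosis, had 4 lower calls among 9 regions, and that at chr2:112509917-112510581 had 32.9, 47.5 and 32.1 CPM in WT eTreg against 65.2, 60.9 and 66.7 CPM in WT cTreg libraries and a log2 fold change of -0.77 (SE 0.13, adjusted p = 0.00226). It too was kept without each WT library. At Lilr4b, 3 higher calls lay in a row over 27.1 kb, but this gene has a near-identical neighbour in the mouse, so its reads may be shared between copies.

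Effector transcription factors did not move as a block. Of 289 regions of 19 genes, 12 were called higher (4.15%, background 1.83%) and 4 lower, and their median of 0.01 lay beside -0.01 for all regions. Without WT cTreg 2 and FntbKO cTreg 1, the calls were 25 higher and 10 lower among 290 regions. Effector factor calls were 5 higher and 1 lower without WT eTreg 1, 9 and 7 without WT eTreg 2, 2 and 1 without WT eTreg 3, 2 and 2 without WT cTreg 1, 21 and 10 without WT cTreg 2, and 3 and 1 without WT cTreg 3. Opening was seen at Maf, Zeb2, Tbx21, Rora, Bhlhe40, Id2 and Pparg. Maf, a factor that drives IL-10 in T cells, had a region 35.7 kb away (chr8:115742593-115743118) with 22.9, 23.4 and 31.7 CPM in WT eTreg against 8.66, 11.4 and 10.1 CPM in WT cTreg libraries. The eTreg libraries were all above the cTreg libraries, with a log2 fold change of 1.37 (SE 0.20, adjusted p = 0.000772). Zeb2, a transcriptional repressor active in terminal effector cells, had 6.02, 6.57 and 8.14 CPM in WT eTreg against 1.40, 2.41 and 2.32 CPM in WT cTreg libraries at chr2:44956299-44956624, 26.9 kb away, and a log2 fold change of 1.74 (SE 0.32, adjusted p = 0.00381). Both calls were kept without each WT library.

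Tbx21 and Pparg opened at shallower regions. Tbx21, which encodes T-bet, the factor of interferon-γ-producing helper cells, had 6.14, 5.98 and 13.7 CPM in WT eTreg against 1.96, 3.10 and 2.75 CPM in WT cTreg libraries at chr11:97103819-97104494 inside the gene. Its log2 fold change was 1.70 (SE 0.36, adjusted p = 0.00906), and the call was lost when WT eTreg 3 or WT cTreg 1 or 3 was left out (adjusted p 0.0544 to 0.107). Pparg, the nuclear receptor of fat-tissue Treg cells, had 7.23, 7.17 and 7.97 CPM in WT eTreg against 1.96, 4.64 and 2.75 CPM in WT cTreg libraries at a region 22.7 kb away and a log2 fold change of 1.28 (SE 0.35, adjusted p = 0.0380). Pparg lost this call when WT eTreg 1, 2 or 3 or WT cTreg 1 or 3 was left out (adjusted p 0.0650 to 0.169). Irf4, a factor that effector Treg cells need, moved the other way within the gene. At chr13:30760230-30760768 it had 24.6, 30.6 and 20.9 CPM in WT eTreg against 39.1, 48.5 and 44.3 CPM in WT cTreg libraries and a log2 fold change of -0.78 (SE 0.13, adjusted p = 0.00238), kept without each WT library. Eomes, a relative of T-bet, had lower regions at 78.8 and 90.2 kb from the gene, and Bcl6, the factor of follicular cells, had 1 within 10 kb. No region of Prdm1 (19 tested), Batf (10) or Gata3 (19), further factors of effector Treg cells, was called.

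Genes of Treg identity had calls in both directions, with a share of lower calls near that of all regions. Of 202 regions of 12 genes, 7 were called higher and 4 lower (3.46% and 1.98%, against 1.83% and 1.61% of all regions), with a median of -0.07. Identity calls were 4 higher and 2 lower without WT eTreg 1, 3 and 2 without WT eTreg 3 or WT cTreg 3, and 4 and 3 without WT cTreg 1. Foxp3 had no call among 3 regions and Il2ra, the high-affinity IL-2 receptor chain, none among 19. Ikzf2, which encodes Helios, a factor of thymus-derived Treg cells, opened at 4 of 51 regions and closed at none. Its region 31.8 kb away (chr1:69498855-69499362) had 7.83, 5.88 and 10.3 CPM in WT eTreg against 2.23, 2.24 and 1.90 CPM in WT cTreg libraries and a log2 fold change of 1.90 (SE 0.33, adjusted p = 0.00236). A second one, at chr1:69469127-69469776, had 10.6, 7.97 and 8.82 CPM in WT eTreg against 3.07, 2.75 and 2.75 CPM in WT cTreg libraries and a log2 fold change of 1.67 (SE 0.31, adjusted p = 0.00391). The groups did not overlap at either, and both were kept without each WT library. Over all 51 Ikzf2 regions the median was -0.00. Nrp1, a semaphorin receptor on thymus-derived Treg cells, closed inside the gene at chr8:128473817-128474273, with 21.2, 27.0 and 22.2 CPM in WT eTreg against 40.8, 41.0 and 47.4 CPM in WT cTreg libraries and a log2 fold change of -0.87 (SE 0.13, adjusted p = 0.000752). Lrrc32, which encodes GARP, the anchor of latent TGF-β, closed 11.4 kb away at chr7:98513213-98513651, with 12.5, 13.3 and 13.4 CPM in WT eTreg against 26.7, 19.8 and 22.3 CPM in WT cTreg libraries and a log2 fold change of -0.81 (SE 0.16, adjusted p = 0.00579). The Nrp1 and Lrrc32 calls were kept without each WT library. Ctla4, the checkpoint receptor, had 1 higher and 1 lower region. At the higher one, chr1:60874906-60875697, the values were 21.2, 26.5 and 34.4 CPM in WT eTreg against 9.49, 15.8 and 16.1 CPM in WT cTreg libraries, with a log2 fold change of 0.98 (SE 0.23, adjusted p = 0.0232). Ctla4 lost this call when WT eTreg 3 or WT cTreg 1 or 3 was left out (adjusted p 0.0626 to 0.116).

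Costimulatory and inhibitory receptor genes had 9 higher and 8 lower calls among 213 regions (4.22% and 3.76%, against 1.83% and 1.61% of all regions, median -0.02). Costimulatory list calls were 4 higher and 2 lower without WT eTreg 1, 8 and 5 without WT eTreg 2, and 2 and 1 without WT eTreg 3, WT cTreg 1 or WT cTreg 3. Higher calls were at Klrg1, Tigit, Pdcd1, Havcr2, Pvrig, Icos, Cd6 and Cd226, most of them receptors that restrain effector lymphocytes. Other receptors of the list did not open. No call fell at 8 of its 19 genes (Lag3, Cd5, Cd160, Cd96, Tnfrsf4, Tnfrsf1b, Cd27 and Slamf6), and Btla had only a lower call. Klrg1, an inhibitory receptor of terminally differentiated cells, had 11.8, 12.8 and 16.3 CPM in WT eTreg against 1.81, 4.13 and 4.44 CPM in WT cTreg libraries at chr6:122262538-122263143, 7.5 kb away. The lowest eTreg library was above the highest cTreg library, and the log2 fold change of 1.96 (SE 0.34, adjusted p = 0.00256) was kept without each WT library. Tigit, a receptor for the nectin family, had 11.6, 9.76 and 14.4 CPM in WT eTreg against 2.095, 6.88 and 3.38 CPM in WT cTreg libraries at a region 32.7 kb away, with a log2 fold change of 1.56 (SE 0.32, adjusted p = 0.00812). Tigit lost this call when WT eTreg 3 or WT cTreg 1 or 3 was left out (adjusted p 0.0510 to 0.0805). The promoter of Pvrig, a second receptor for nectins, had 3.37, 3.79 and 6.11 CPM in WT eTreg against 0.558, 0.688 and 1.06 CPM in WT cTreg libraries and a log2 fold change of 2.45 (SE 0.50, adjusted p = 0.00766). Pvrig lost this call when WT eTreg 3 was left out (adjusted p = 0.0610). Pdcd1, which encodes PD-1, had 15.9, 9.36 and 11.2 CPM in WT eTreg against 6.28, 6.71 and 4.96 CPM in WT cTreg libraries at a region 22 kb away and a log2 fold change of 1.03 (SE 0.24, adjusted p = 0.0167). Pdcd1 lost this call when WT eTreg 1 or 3 or WT cTreg 1 or 3 was left out (adjusted p 0.0515 to 0.132).

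The lower calls of this list were at Cd28, Btla, Cd226, Tnfrsf9 and Icos. Cd28, the costimulatory receptor of naive T cells, closed at 3 regions and opened at none. That at chr1:60713700-60714234 had 4.10, 2.99 and 1.70 CPM in WT eTreg against 9.08, 4.64 and 9.09 CPM in WT cTreg libraries and a log2 fold change of -1.36 (SE 0.32, adjusted p = 0.0190). Cd28 lost this call when WT eTreg 2 or 3 or WT cTreg 1 or 3 was left out (adjusted p 0.0512 to 0.126). Cd226, the activating counterpart of TIGIT, closed 16.7 kb away at chr18:89159829-89160281, with 28.2, 27.8 and 19.0 CPM in WT eTreg against 48.7, 41.1 and 43.1 CPM in WT cTreg libraries and a log2 fold change of -0.81 (SE 0.13, adjusted p = 0.00184), kept without each WT library. Inside the gene Cd226 also had a region called higher, with 7.83, 8.57 and 6.11 CPM in WT eTreg against 3.35, 3.61 and 2.96 CPM in WT cTreg libraries and a log2 fold change of 1.2 (SE 0.29, adjusted p = 0.0191). Cd226 lost this call when WT eTreg 1 or 2 or WT cTreg 1 or 3 was left out (adjusted p 0.0597 to 0.111). Icos, the costimulatory receptor of effector Treg cells, likewise had 1 call each way. Its higher region, 54 kb away, had 15.7, 18.0 and 18.0 CPM in WT eTreg against 6.42, 8.09 and 5.92 CPM in WT cTreg libraries and a log2 fold change of 1.35 (SE 0.32, adjusted p = 0.0280), and was lost when WT eTreg 1, 2 or 3 or WT cTreg 1 or 3 was left out (adjusted p 0.0681 to 0.141).

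Suppressive and repair molecules opened at Il10 and Gzmb. Their list had 5 higher calls and 1 lower among 105 regions (4.76% and 0.952%, against 1.83% and 1.61% of all regions, median 0.13). The list's calls were 2 higher and 0 lower without WT eTreg 1, 8 and 1 without WT eTreg 2, 0 and 0 without WT eTreg 3, WT cTreg 1 or WT cTreg 3, and 3 and 1 without FntbKO eTreg 1 or FntbKO eTreg 2. Il10, the anti-inflammatory cytokine, held 4 of the 5, among 12 regions of which 11 were above 0 and 7 had all eTreg above all cTreg libraries. Just outside the gene, at chr1:131025817-131026271, it had 17.8, 16.04 and 18.7 CPM in WT eTreg against 9.08, 11.01 and 9.72 CPM in WT cTreg libraries and a log2 fold change of 0.82 (SE 0.19, adjusted p = 0.0177). The best covered of the 4 called regions, 16.1 kb away (chr1:131003119-131003763), had 39.4, 25.4 and 45.1 CPM in WT eTreg against 11.4, 17.2 and 10.99 CPM in WT cTreg libraries and a log2 fold change of 1.48 (SE 0.34, adjusted p = 0.0486). The eTreg libraries were above the cTreg libraries at both. Neither call was stable to the choice of libraries: the one beside the gene was lost when WT eTreg 1 or 3 or WT cTreg 1 or 3 was left out (adjusted p 0.0681 to 0.0958), and the other lost when WT eTreg 1 or 3, WT cTreg 1 or 3 or FntbKO eTreg 1 or 2 was left out (adjusted p 0.0728 to 0.169). The single lower call was beside Il12a, the subunit that pairs with EBI3 in IL-35, with 4.10, 6.97 and 3.22 CPM in WT eTreg against 11.3, 8.78 and 10.2 CPM in WT cTreg libraries and a log2 fold change of -1.05 (SE 0.27, adjusted p = 0.0297). Il12a lost this call when WT eTreg 1 or 3 or WT cTreg 1 or 3 was left out (adjusted p 0.115 to 0.163). Ebi3, Tgfb1, Areg and Entpd1 had no call.

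Helper T cell cytokine genes opened in eTreg cells at Il17a, Il17f and Ifng. Of 68 regions of this list, 5 were called higher and 2 lower (7.35% and 2.94%, against 1.83% and 1.61% of all regions, median 0.11), and 6 and 3 without WT cTreg 2 and FntbKO cTreg 1. Cytokine calls were 2 higher and 1 lower without WT eTreg 3 or WT cTreg 1, and 3 and 0 without WT cTreg 3. Il17a and Il17f, neighbours that encode the IL-17 cytokines, had 3 higher calls in a row over 19.8 kb. The strongest (chr1:20743785-20744360, 9.3 kb from Il17a) had 28.8, 26.2 and 19.7 CPM in WT eTreg against 8.66, 9.98 and 4.44 CPM in WT cTreg libraries. No cTreg library reached the eTreg range, and the log2 fold change was 1.74 (SE 0.24, adjusted p = 0.000749), kept without each WT library. Ifng, interferon-γ, opened at its promoter and 5.1 kb before it. The distal region (chr10:118435226-118435923) had 7.47, 14.3 and 11.2 CPM in WT eTreg against 1.68, 3.44 and 4.65 CPM in WT cTreg libraries and a log2 fold change of 1.73 (SE 0.31, adjusted p = 0.00267), kept without each WT library, and the promoter had 12.5, 15.7 and 19.5 CPM in WT eTreg against 4.47, 8.26 and 8.03 CPM in WT cTreg libraries and a log2 fold change of 1.19 (SE 0.25, adjusted p = 0.0105). Ifng lost this call when WT eTreg 3 or WT cTreg 1 was left out (adjusted p 0.0640 to 0.0753). On the far side of the gene, 14.2 kb away, a region closed, with 8.07, 7.97 and 9.16 CPM in WT eTreg against 18.1, 14.4 and 19.5 CPM in WT cTreg libraries and a log2 fold change of -1.06 (SE 0.20, adjusted p = 0.00404). That call was lost when WT cTreg 3 was left out (adjusted p = 0.0522). Il21, a cytokine of follicular helper cells, had a lower region with 21.2, 16.9 and 13.2 CPM in WT eTreg against 33.4, 23.4 and 28.5 CPM in WT cTreg libraries and a log2 fold change of -0.72 (SE 0.17, adjusted p = 0.0158). Il21 lost this call when WT eTreg 3 or WT cTreg 1 or 3 was left out (adjusted p 0.0849 to 0.115). No region of Il4, Il5, Il13 or Il2 was called.

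Cytokine receptor genes opened at Il23r, Il1rl1, Ifngr1, Il1r1 and Il2rb and closed at Il7r and Il6st. The list of cytokine receptors had 8 higher and 2 lower calls among 181 regions, with a median of -0.00. The shares were 4.42% higher and 1.10% lower, against 1.83% and 1.61% of all regions, so lower calls were no more frequent than elsewhere. Receptor calls were 4 higher and 0 lower without WT eTreg 1, 5 and 2 without WT eTreg 2, 3 and 0 without WT eTreg 3, 1 and 0 without WT cTreg 1, 8 and 7 without WT cTreg 2, and 0 and 0 without WT cTreg 3. Il23r, the IL-23 receptor, had 3 higher calls. Inside the gene at chr6:67475583-67475974 it had 5.42, 7.97 and 4.75 CPM in WT eTreg against 1.81, 2.58 and 1.06 CPM in WT cTreg libraries and a log2 fold change of 1.80 (SE 0.40, adjusted p = 0.0137). Il23r lost this call when WT eTreg 2 or WT cTreg 1 or 3 was left out (adjusted p 0.0516 to 0.118). Il1rl1, the IL-33 receptor ST2 of tissue Treg cells, opened at 2 regions outside the gene. At chr1:40393223-40393868 it had 12.9, 21.7 and 21.6 CPM in WT eTreg against 4.05, 11.01 and 6.34 CPM in WT cTreg libraries and a log2 fold change of 1.42 (SE 0.31, adjusted p = 0.0200). Il1rl1 lost this call when WT eTreg 2 or 3 or WT cTreg 1 or 3 was left out (adjusted p 0.0558 to 0.118). Ifngr1, the interferon-γ receptor, had 16.6, 12.6 and 14.6 CPM in WT eTreg against 8.66, 5.85 and 7.82 CPM in WT cTreg libraries at a region 61.4 kb away, with a log2 fold change of 0.96 (SE 0.21, adjusted p = 0.0110). Ifngr1 lost this call when WT eTreg 1 or WT cTreg 3 was left out (adjusted p 0.0612 to 0.0682). Il2rb, the shared β chain of the IL-2 and IL-15 receptors, opened by a smaller step, with 42.4, 40.9 and 47.3 CPM in WT eTreg against 28.6, 35.4 and 26.9 CPM in WT cTreg libraries and a log2 fold change of 0.53 (SE 0.12, adjusted p = 0.0141). Il2rb lost this call when WT eTreg 3 or WT cTreg 1 or 3 was left out (adjusted p 0.0630 to 0.121). Il7r, the receptor for the survival cytokine IL-7, closed 3.4 kb from the gene, with 21.3, 21.5 and 16.3 CPM in WT eTreg against 29.3, 25.5 and 32.5 CPM in WT cTreg libraries and a log2 fold change of -0.56 (SE 0.14, adjusted p = 0.0269). Il7r lost this call when WT eTreg 1 or 3 or WT cTreg 1 or 3 was left out (adjusted p 0.0594 to 0.173).

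Genes of tissue chemokine receptors and adhesion had 8 calls, all higher, among 161 regions (4.97%, against 1.83% of all regions, median 0.07). Without WT cTreg 2 and FntbKO cTreg 1 there were 12 higher and 1 lower. The count of higher calls was 4 with WT eTreg 1 left out, 4 with WT eTreg 2 left out, 1 with WT eTreg 3 left out, 1 with WT cTreg 1 left out and 1 with WT cTreg 3 left out. Of the 8, 4 lay at Itga1, the α chain of the collagen receptor VLA-1, among 15 regions. The region inside Itga1 at chr13:115098072-115098787 had 8.31, 8.47 and 11.03 CPM in WT eTreg against 0.838, 1.72 and 2.11 CPM in WT cTreg libraries. The eTreg libraries were well above the cTreg libraries, with a log2 fold change of 2.53 (SE 0.35, adjusted p = 0.000578), a call kept without each WT library. In FntbKO cells its log2 fold change was 1.03 (SE 0.44, adjusted p = 0.255). Cxcr3, the receptor for interferon-induced chemokines, had 17.4, 20.1 and 17.3 CPM in WT eTreg against 6.98, 12.9 and 9.30 CPM in WT cTreg libraries at chrX:101737187-101737658 and a log2 fold change of 0.93 (SE 0.24, adjusted p = 0.0303). Cxcr3 lost this call when WT eTreg 1, 2 or 3 or WT cTreg 1 or 3 was left out (adjusted p 0.0798 to 0.142). Ccr6, the receptor for CCL20, Fut7, which builds selectin ligands, and Cd44, a marker of activated T cells, had 1 call each, and each was lost without WT eTreg 3, WT cTreg 1 or WT cTreg 3 (adjusted p up to 0.231). Ccr8 (6 regions), Ccr4 (6) and Itgae (9), further genes of tissue Treg cells, had none.

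TGF-β receptor and Smad genes had 3 higher and 7 lower calls among 161 regions (1.86% and 4.35%, against 1.83% and 1.61% of all regions, median -0.14). TGF-β pathway calls were 0 higher and 2 lower without WT eTreg 1 or WT eTreg 3, 1 and 3 without WT cTreg 1, 4 and 13 without WT cTreg 2, and 1 and 2 without WT cTreg 3. Tgfbr2, the ligand-binding receptor chain, had calls both ways. A region 12 kb away (chr9:116187404-116187814) had 3.37, 5.28 and 4.41 CPM in WT eTreg against 11.3, 13.8 and 13.8 CPM in WT cTreg libraries, with no overlap and a log2 fold change of -1.56 (SE 0.23, adjusted p = 0.000752), kept without each WT library. Its promoter was higher instead, with 46.0, 37.9 and 45.0 CPM in WT eTreg against 33.6, 30.4 and 29.5 CPM in WT cTreg libraries and a log2 fold change of 0.46 (SE 0.12, adjusted p = 0.0294). Tgfbr2 lost this call when WT eTreg 1 or 3 or WT cTreg 3 was left out (adjusted p 0.126 to 0.151). Tgfbr3, the co-receptor betaglycan, closed at 3 regions, of which that at chr5:107078394-107078762 had 2.29, 2.79 and 1.02 CPM in WT eTreg against 6.42, 6.54 and 6.97 CPM in WT cTreg libraries and a log2 fold change of -1.64 (SE 0.32, adjusted p = 0.00571), kept without each WT library. Smad4 and Smad7 had 1 lower region each, and Smad3 had 1 higher region, all lost without WT eTreg 1, WT eTreg 3, WT cTreg 1 or WT cTreg 3 (adjusted p up to 0.230).

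Signalling genes of the T cell receptor were called about as often as all tested regions, of which 1.83% were higher and 1.61% lower. Signalling components had 5 higher and 5 lower calls among 301 regions (1.66% in each direction). Component calls were 1 higher and 0 lower without WT eTreg 1 or WT cTreg 3, 3 and 4 without WT eTreg 2, 0 and 0 without WT eTreg 3, 0 and 1 without WT cTreg 1, 9 and 5 without WT cTreg 2, and 3 and 5 without FntbKO eTreg 1 or FntbKO eTreg 2. Induced genes had 7 higher and 3 lower among 253 (2.77% and 1.19%). Induced gene calls were 3 higher and 1 lower without WT eTreg 1, 2 and 0 without WT eTreg 3, 1 and 0 without WT cTreg 1, 5 and 5 without WT cTreg 2, and 0 and 0 without WT cTreg 3. Among induced genes, Nfatc1, the NFAT factor that amplifies its own expression, had 12.5, 14.4 and 11.9 CPM in WT eTreg against 3.91, 8.09 and 3.70 CPM in WT cTreg libraries at chr18:80684332-80684790 inside the gene and a log2 fold change of 1.35 (SE 0.29, adjusted p = 0.0112). Nfatc1 lost this call when WT cTreg 1 or 3 was left out (adjusted p 0.0636 to 0.106). Tox2, an HMG-box factor of chronically stimulated T cells, opened at 3 regions. The one with the smallest p (chr2:163166501-163166806) had 12.3, 5.88 and 8.48 CPM in WT eTreg against 3.63, 2.92 and 2.11 CPM in WT cTreg libraries and a log2 fold change of 1.63 (SE 0.33, adjusted p = 0.00760). Tox2 lost this call when WT eTreg 1 or WT cTreg 3 was left out (adjusted p 0.0764 to 0.0804). Its relative Tox closed at 2 regions within the gene, that at chr4:6970368-6970951 with 18.3, 20.9 and 17.0 CPM in WT eTreg against 41.9, 23.7 and 34.2 CPM in WT cTreg libraries and a log2 fold change of -0.83 (SE 0.17, adjusted p = 0.00812). Tox lost this call when WT eTreg 3 or WT cTreg 1 or 3 was left out (adjusted p 0.0603 to 0.0632). The AP-1 and bZIP list had 3 higher and 2 lower among 124 regions (2.42% and 1.61%), close to the shares over all regions. AP-1 and bZIP calls were 0 higher and 0 lower without WT eTreg 1 or WT cTreg 3, 3 and 1 without WT eTreg 2, and 1 and 0 without WT eTreg 3 or WT cTreg 1. The NF-κB list had 5 higher and 1 lower among 130 (3.85% and 0.769%). NF-κB calls were 1 higher and 0 lower without WT eTreg 1, WT cTreg 1 or WT cTreg 3, 0 and 0 without WT eTreg 3, and 4 and 0 without FntbKO eTreg 1 or FntbKO eTreg 2. Tnfaip3, the NF-κB inhibitor A20, had 2 of the higher regions. At chr10:18946725-18947204, 53.7 kb away, the values were 8.67, 9.76 and 12.7 CPM in WT eTreg against 1.96, 4.13 and 5.28 CPM in WT cTreg libraries and the log2 fold change 1.42 (SE 0.33, adjusted p = 0.0191). Tnfaip3 lost this call when WT eTreg 3 or WT cTreg 1 was left out (adjusted p 0.0912 to 0.108).

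Nutrient and glycolysis genes opened at 6 of 166 regions and closed at none (3.61% higher, against 1.83% of all regions, median 0.07), at Asns, Psat1, Mthfd2, Hk2, Slc2a3 and Hif1a. The count of higher calls was 1 with WT eTreg 1 left out, 1 with WT eTreg 3 left out, 3 with WT cTreg 1 left out and 1 with WT cTreg 3 left out. Asns was described above. The promoter of Hk2, the hexokinase that commits glucose to glycolysis, had 40.2, 40.5 and 50.0 CPM in WT eTreg against 35.0, 29.2 and 30.5 CPM in WT cTreg libraries and a log2 fold change of 0.46 (SE 0.12, adjusted p = 0.0360). Hk2 lost this call when WT eTreg 1 or 3 or WT cTreg 2 or 3 was left out (adjusted p 0.0612 to 0.209). Slc2a3, a glucose transporter, had 41.9, 40.9 and 50.6 CPM in WT eTreg against 22.3, 33.7 and 28.1 CPM in WT cTreg libraries and a log2 fold change of 0.66 (SE 0.18, adjusted p = 0.0451). Slc2a3 lost this call when WT eTreg 1, 2 or 3 or WT cTreg 1 or 3 was left out (adjusted p 0.0601 to 0.181). Mthfd2, an enzyme of mitochondrial one-carbon metabolism, had 25.1, 19.2 and 24.4 CPM in WT eTreg against 14.9, 16.9 and 14.5 CPM in WT cTreg libraries and a log2 fold change of 0.57 (SE 0.16, adjusted p = 0.0483). Mthfd2 lost this call when WT eTreg 1 or 3, WT cTreg 1 or 3 or FntbKO eTreg 1 or 2 was left out (adjusted p 0.0589 to 0.196). None of 46 regions of sterol and isoprenoid synthesis genes was called in edgeR, 0 in DESeq2 and 0 in limma-voom, while 9 had an unadjusted p under 0.05 in edgeR. The smallest p was at Srebf2, the regulator of the sterol pathway, with 2.65, 7.57 and 5.77 CPM in WT eTreg against 2.51, 2.41 and 0.845 CPM in WT cTreg libraries and a log2 fold change of 1.52 (SE 0.51, adjusted p = 0.108), so its groups did not overlap although it missed the threshold. It passed in 5 alternatives, among them without WT cTreg 2 and FntbKO cTreg 1 (adjusted p = 0.0385).

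The prenylation and lamin list had 3 higher calls, all at Lmnb1, and 4 lower calls, all at Fntb, among 56 regions (5.36% and 7.14%, against 1.83% and 1.61% of all regions). Prenylation and lamin calls were 0 higher and 0 lower without WT eTreg 1, WT eTreg 3 or WT cTreg 3, 3 and 1 without WT eTreg 2, and 1 and 1 without WT cTreg 1. Lmnb1 encodes the farnesylated lamin B1. Its region at chr18:56737372-56737796 had 36.4, 22.01 and 30.4 CPM in WT eTreg against 17.9, 14.3 and 12.4 CPM in WT cTreg libraries and a log2 fold change of 0.996 (SE 0.20, adjusted p = 0.00936). Lmnb1 lost this call when WT eTreg 1 or 3 or WT cTreg 3 was left out (adjusted p 0.0539 to 0.0881). Fntb itself is intact in these WT cells. At chr12:76874004-76874477 it had 9.64, 10.8 and 11.5 CPM in WT eTreg against 13.7, 18.8 and 20.6 CPM in WT cTreg libraries and a log2 fold change of -0.74 (SE 0.18, adjusted p = 0.0252). Fntb lost this call when WT eTreg 1, 2 or 3 or WT cTreg 3 was left out (adjusted p 0.0527 to 0.173). All 4 Fntb calls were lost without WT eTreg 3 and also without WT cTreg 3 (adjusted p up to 0.246). Survival genes had 6 lower and 2 higher calls among 167 regions (3.59% and 1.198%, against 1.61% lower and 1.83% higher of all regions). Survival calls were 2 higher and 1 lower without WT eTreg 1, 1 and 7 without WT eTreg 2, 1 and 1 without WT eTreg 3, WT cTreg 1 or WT cTreg 3, and 4 and 7 without WT cTreg 2. Of the 6, 4 were at Bcl2, the survival factor that IL-7 and IL-2 maintain, among 40 regions. At chr1:106663090-106663441 it had 1.45, 1.59 and 0.679 CPM in WT eTreg against 3.35, 3.79 and 4.23 CPM in WT cTreg libraries and a log2 fold change of -1.55 (SE 0.39, adjusted p = 0.0284). Bcl2 lost this call when WT eTreg 1 or 3 or WT cTreg 1 or 3 was left out (adjusted p 0.0587 to 0.138). Bcl2l11, which encodes the death factor BIM, closed 88.3 kb away at chr2:128250838-128251227, with 6.87, 8.17 and 7.13 CPM in WT eTreg against 17.9, 13.4 and 19.0 CPM in WT cTreg libraries and a log2 fold change of -1.19 (SE 0.21, adjusted p = 0.00244), kept without each WT library. Cell cycle genes had 2 higher calls among 140 regions (1.43%, below the 1.83% of all regions), at Cdk6 and Ccnd3, both lost without WT eTreg 1, 2 or 3 and without WT cTreg 1 or 3, and Mki67, the proliferation marker, had none among 9.

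**Figure D5:**
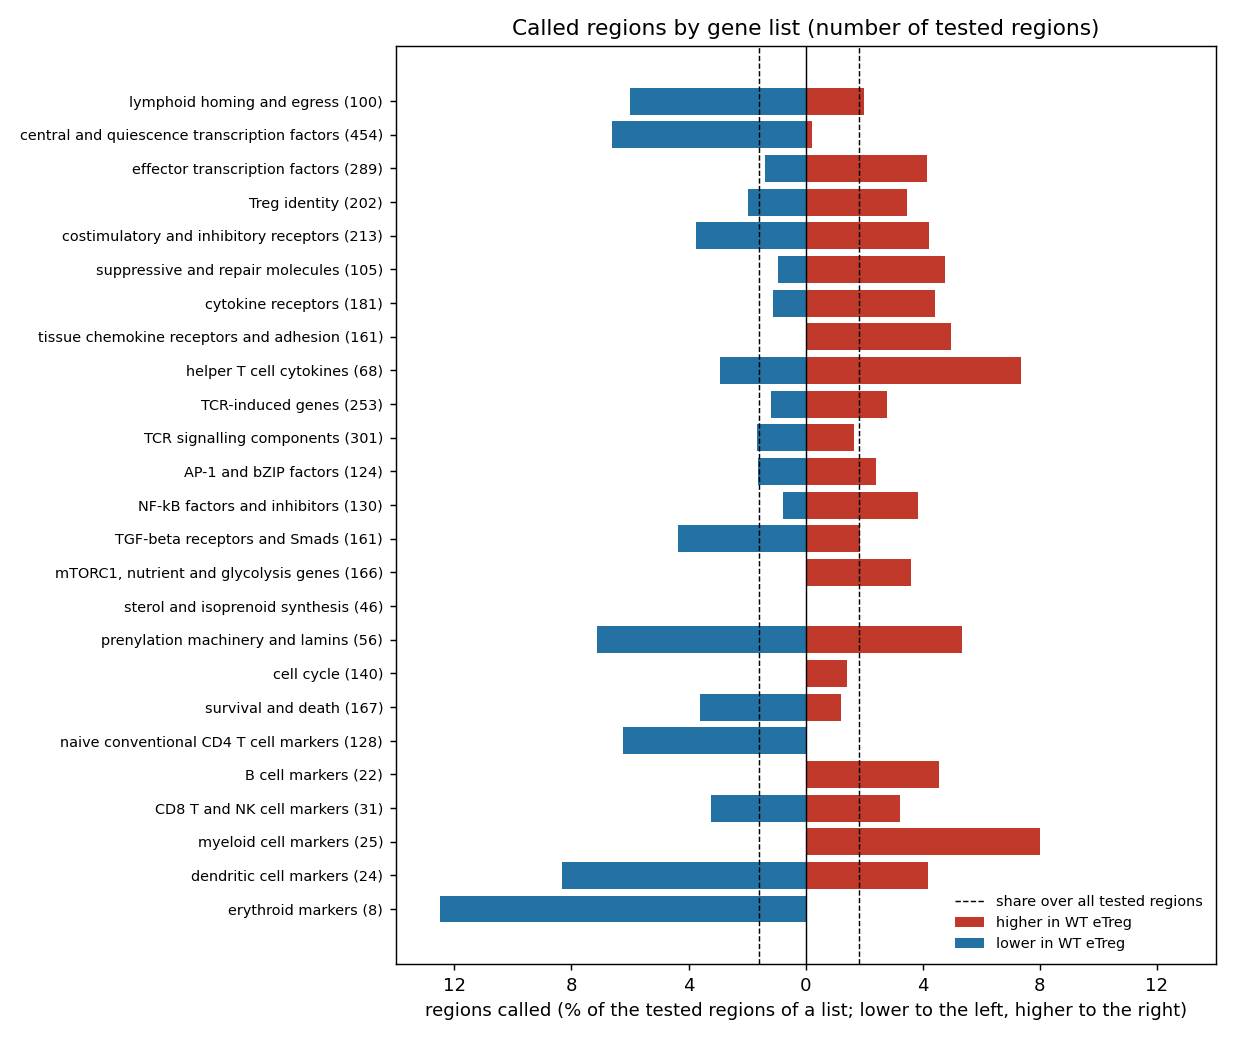
Percent of each list's tested regions called lower (left) and higher (right) in WT eTreg over WT cTreg, by gene list; dashed lines mark all tested regions (1.61% lower, 1.83% higher). The longest bars on the left are the erythroid (12.5%, 1 of 8 regions), dendritic cell (8.33%, 2 of 24), prenylation (7.14%), central factor (6.61%), naive CD4 (6.25%) and homing (6.0%) lists, and on the right the myeloid (8%, 2 of 25) and helper cytokine (7.35%) lists.

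The 10 openings and 10 closings with the smallest p among core regions at or above the median level whose groups did not overlap, 1 per gene, lay mostly beside genes outside these lists. The smallest adjusted p was at Serpina3f, a serine protease inhibitor (chr12:104209748-104210226, 4.3 kb from the gene), with 30.4, 29.3 and 35.8 CPM in WT eTreg against 6.70, 9.63 and 10.1 CPM in WT cTreg libraries and a log2 fold change of 1.84 (SE 0.21, adjusted p = 0.000194). Uspl1, a SUMO protease, had 29.4, 16.5 and 27.7 CPM in WT eTreg against 8.24, 7.40 and 8.03 CPM in WT cTreg libraries at a region 23.5 kb away, with a log2 fold change of 1.62 (SE 0.21, adjusted p = 0.000578). Rgs1, a brake on chemokine receptor signalling in tissue lymphocytes, had 25.4, 26.5 and 25.4 CPM in WT eTreg against 10.1, 12.4 and 12.6 CPM in WT cTreg libraries at chr1:144308278-144308699, 59.2 kb away, with a log2 fold change of 1.14 (SE 0.16, adjusted p = 0.000578). The other 7 of the 10 strongest openings were at Lin54, Vcpkmt, Zcchc2, Dad1, Bmerb1, Galnt2 and Pttg1ip2, with log2 fold changes from 0.75 to 2.15. The strongest closings were at Kif1b, Krr1, Ostm1, Sipa1l1, Camk2a, Dpp4, Tgfbr2, Nrp1, Emsy and Mxd1, with log2 fold changes from -1.56 to -0.84. Kif1b, a kinesin motor, had 14.5, 18.7 and 13.6 CPM in WT eTreg against 33.5, 34.1 and 32.2 CPM in WT cTreg libraries at chr4:149282229-149282962 and a log2 fold change of -1.08 (SE 0.14, adjusted p = 0.000578). Dpp4, the surface peptidase CD26 of resting T cells, had 19.5, 19.5 and 20.02 CPM in WT eTreg against 45.0, 31.7 and 36.3 CPM in WT cTreg libraries at chr2:62352009-62352452 and a log2 fold change of -0.94 (SE 0.14, adjusted p = 0.000731). Mxd1, an antagonist of MYC in resting cells, had 20.4, 26.6 and 17.0 CPM in WT eTreg against 38.1, 41.98 and 40.9 CPM in WT cTreg libraries at chr6:86644708-86645543 and a log2 fold change of -0.90 (SE 0.14, adjusted p = 0.000947). The rule for naming these openings and closings fixed that their groups do not overlap.

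Genes that mark naive conventional CD4 T cells closed in part alongside the central genes. Of the 10 genes in this list Ccr7, Tcf7 and Lef1 also stand in the homing or central lists, and Il7r among the cytokine receptors. Of their 128 regions, 8 were called lower (6.25%, against 1.61% of all regions) and none higher, with a median of -0.28, and 12 were lower without WT cTreg 2 and FntbKO cTreg 1. The count of lower calls was 4 with WT eTreg 1 left out, 3 with WT eTreg 3 left out, 3 with WT cTreg 1 left out and 3 with WT cTreg 3 left out. The summed level over these regions was 1358.4 to 1521 CPM in WT eTreg and 1586.2 to 1703.4 CPM in WT cTreg libraries. Dapl1, a gene of naive T cells, closed at 3 regions that the homing and factor lists do not hold. That at chr2:59469646-59470296, 14.4 kb away, had 22.6, 26.0 and 15.6 CPM in WT eTreg against 48.6, 41.98 and 43.7 CPM in WT cTreg libraries and a log2 fold change of -1.04 (SE 0.16, adjusted p = 0.00173), kept without each WT library. Igfbp4, Actn1, Rflnb, Tdgf1 and Lypd6b had no call. How far naive CD4 T cells took part in the change was not tested.

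Marker genes of other cells held 8 to 31 tested regions per list and 1 to 3 calls each. Of 22 B cell marker regions 1 was higher, at Blk (4.5% against 1.83% of all regions), and the regions summed to 119 to 131 CPM in WT eTreg and 98.2 to 116.7 CPM in WT cTreg libraries. Ebf1, Pax5, Blk, Cd22 and Cd79a had tested regions, and Cd79b, Ms4a1 and Fcer2a had none. Myeloid markers had 2 higher calls among 25 regions (8%), at Itgam and Spi1, with sums of 115.9 to 138.2 CPM in WT eTreg and 98.3 to 116.7 CPM in WT cTreg libraries. Tested regions lay at 9 of the 12 myeloid genes, 10 of them at Itgam and 6 at Spi1, and none at Lyz2, Csf1r or Adgre1. For CD8 T and NK cell markers the sums were 253.9 to 271.6 CPM in WT eTreg and 250.9 to 259.8 CPM in WT cTreg libraries, with 1 higher call beside Nkg7 and 1 lower call in Cd8a among 31 regions (3.23% in each direction). Dendritic cell markers had 1 higher call (4.17%), beside Siglech, at 47 counts in all in WT eTreg against 0 in WT cTreg libraries, and 2 lower calls in Flt3 (8.33% against 1.61% of all regions), among 24 regions. Erythroid markers had 1 lower call, beside Gata1, among 8 (12.5%). None of these marker calls was kept without WT cTreg 3. Their part in the changes above was not tested.

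The subset change of WT cells was also seen in FntbKO cells, where 2 libraries stood against 2 and 1033 regions (1.36% of those tested) were called. Of the 154 core openings, 150 also lay above 0 in FntbKO eTreg over FntbKO cTreg, with a median log2 fold change of 1.12 beside 1.47 in WT, and 66 were called there. Of the 114 core closings, 110 lay below 0 in FntbKO, with a median of -0.68 beside -0.98, and 38 were called there. The core was chosen on the WT values, so the WT medians carry that choice. At Satb1 (chr17:51779966-51780258) the FntbKO value was -0.76 (SE 0.57, adjusted p = 0.574), and at Klrg1 0.66 (SE 0.46, adjusted p = 0.531). The test of the difference between the genotypes called none of the 76216 regions in edgeR (smallest adjusted p = 0.9999), nor in DESeq2 or limma-voom, while 3099 regions had an unadjusted p under 0.05 in edgeR. A difference between genotypes at these single regions was therefore not shown.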

How the data were processed

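ATAC-seq counts per region were taken as the authors deposited them: raw whole-number counts over 1 set of regions for all 10 libraries, with builds mm10 and GRCm38 named in the submitters' processing notes. These notes also name MACS2 2.1.1, bedtools, SAMtools, Picard 2.9.4 and Trimmomatic 0.36, with no role or order. The aligner, duplicate handling, read shifting and region merging are not given in the sources used here. Library totals ran between 5058328 and 15328775 counts, which limits calls at shallow regions. Even numbers made up 66.7% to 79.2% of a library's counts, so mates of a pair may have been counted separately, and halved counts were tried. The table does not say whether starts count from 0 or 1.

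Regions passing edgeR's filterByExpr were fitted with edgeR 4.0.16 (R 4.3.3; TMM scaling, robust quasi-likelihood, 1 mean for each of the 4 groups, all 10 libraries), and p-values were adjusted by Benjamini-Hochberg over all tested regions. DESeq2 1.42.0 and limma 3.58.1 served as alternatives. The pipeline was tested on simulated data. Log2 fold changes are WT eTreg over WT cTreg. Genes (94.3% of regions had one) and promoters came from RefSeq, GRCm38.p6; promoter class used the 250 bases before and 50 after a listed start.

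The members and lists were chosen with earlier results of these data known. Named regions were, per direction, the 10 with the smallest p among core regions at or above the median level whose groups did not overlap, up to 3 per gene list, the genes with most calls and the longest runs. Other regions of list genes, and the promoters of Dhrs9, Srxn1, Bend5, Ptger3 and Pou2af1, were chosen after their values were seen. Some list genes are not reported here and were left out of the list counts.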

Additional observations from a re-analysis of the deposited data

How the results depend on the processing

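No named region changed direction under any alternative run. Of the values of named regions under the alternatives, 3423 kept their side of the threshold, 600 no longer passed it, and 5, all at Srebf2, newly passed it. Leaving out each library in turn gave 427 to 3664 called regions, 248 to 1995 higher and 176 to 1669 lower. With the replicate number as a block, 4141 regions were called (2247 higher, 1894 lower), and with that block in the 6 WT libraries alone 4587 (2660 higher, 1927 lower). The labels do not say what the numbers mark, and the libraries were treated as unpaired. Deviations of same-numbered libraries correlated at 0.16, 0.083 and 0.032. Each WT cTreg library correlated best with the WT eTreg library of its own number. Seen from the eTreg side, this held for WT eTreg 1 and WT eTreg 2, while WT eTreg 3 correlated best with WT cTreg 2 (0.044). Leaving out both WT cTreg 2 and FntbKO cTreg 1, chosen after seeing the data, gave 4225 called regions, 2459 higher and 1766 lower. The cause was not tested. The other settings (another scaling, filter or tool, halved counts, the 6 WT libraries alone) gave 2184 to 2955 calls. The difference between genotypes gave 0 calls in every setting it was run in. With only regions inside gene spans, 27 list counts moved by more than 1.5 times and 23 did not, and with regions within 10 kb 19 moved and 31 did not. Shallow regions limit the calls: several Gas7, Il23r and Satb1 regions held under 10 counts in all in 1 subset.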
